A study of Mus musculus with 56 samples.

Results

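The genes described here are 10 output and repressor genes of the circadian clock: Dbp, Tef, Hlf, Per1, Per2, Per3, Nr1d1, Nr1d2, Ciart and Bhlhe41. They were taken as a list of names, and all 10 were found among the 20018 genes that could be named on the arrays, by 12 of the 55681 probes. Dbp and Bhlhe41 each had 2 probes, of which the brighter was used, and the other 8 genes had 1. Transcripts were measured in lung, liver and forestomach, on 1 array for each mouse and tissue, in adult male MutaMouse animals of about 14 weeks. This strain carries a transgene on which mutations are scored, and every group carried it. All groups received olive oil by gavage daily over 28 days, and for D0 it held nothing else. For D1 it carried 17.5 mg per kg of the polycyclic aromatic hydrocarbon chrysene a day, for D2 50 and for D3 150, and tissue was taken 72 hours after the last dose. Lungs came from 5 D0, 5 D1, 3 D2 and 5 D3 mice, and the other tissues from 5, 5, 4 and 5. Of the 19 mice, 18 were measured in all 3 tissues, since mouse 11 had no lung array among the data used here.

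In the molecular clock, the activators ARNTL and CLOCK bind E-boxes and switch on the Per, Nr1d, Ciart and Bhlhe41 genes, whose proteins then hold the clock back. PER proteins act on the activators themselves, and the REV-ERB receptors, encoded by Nr1d1 and Nr1d2, silence Arntl through response elements that ROR receptors activate. DBP, TEF and HLF are related PAR bZIP activators that carry the rhythm to genes of metabolism and detoxification through D-boxes, where NFIL3 opposes them. Transcripts of most of these genes rise and fall over the day in liver, lung and other organs. The animals were kept under a fixed light and dark cycle, and the hour of the day at which each was sampled is not given in the sources used here.

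Each value is the log2 ratio of the tissue's RNA, in Cy5, to a universal mouse reference RNA pooled from mouse cell lines, in Cy3. RNA came from random sections of bulk tissue, in which fewer cells of a type and less RNA per cell cannot be told apart. A value of 0 means a signal equal to the reference, and values can be compared for 1 gene between arrays but not between genes. A gene was tested in a tissue where its probe stood well above the background on at least 3 arrays. This left all 10 genes in lung, 9 in liver (without Bhlhe41) and 8 in forestomach (without Ciart and Bhlhe41). Ciart was well above background on 8 of 18 lung, 4 of 19 liver and 0 of 19 forestomach arrays, and Bhlhe41 on 18, 0 and 1. Per3 and Per2 were each well above background on only 5 of 19 forestomach arrays, and Per3 on 3 of 19 liver arrays.

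Several features of the arrays bear on all values. The lung arrays of D3 mice 17 and 19 had mean log2 ratios of 5.67 and 5.88 for 8 skeletal muscle markers, with 8 of 8 above background and summed Cy5 signals of 490046 and 482473. The other lung arrays had means of -0.87 to 0.04, 4 or 5 markers above background and sums of 749.5 to 70934. In forestomach the mean of 8 glandular stomach markers ranged from 0.31 to 6.80. It was at least 5.20 on all 4 D2 arrays, with 8 of 8 markers above background, but covered 0.65 to 6.65 in D0, 0.31 to 6.08 in D1 and 0.55 to 6.80 in D3. Other lists also reached higher in dosed lungs, where keratinocyte markers averaged up to 3.75 at D3 against -0.73 to -0.56 in D0, adipocyte markers up to 3.69 at D2 and 3.99 at D3 against 0.80 to 2.13, and B and T cell markers up to 2.48 at D3 against 0.64 to 1.29. Their part in the lung values was not tested beyond leaving out mice 17 and 19. Other lists varied in forestomach too, where within D0 hepatocyte markers averaged 0.005 to 3.28 and adipocyte markers 1.03 to 4.32. The part of these lists and of the glandular stomach markers in the forestomach values was not tested. As markers of the labelled tissues, 5 alveolar type 2 genes averaged 5.39 to 5.88 in lung, 6 hepatocyte genes 6.56 to 7.16 in liver and 6 keratinocyte genes 3.48 to 5.64 in forestomach. Each tissue was hybridized on 3 slides of its own, so that slide and tissue cannot be told apart. On 50 of the 56 arrays the column on the slide equalled the dose step plus 1, and in lung column 1 held all D0 arrays and no dosed one, so that column and dosing cannot be told apart there. Between 18.9% and 51.7% of spots were well above background on the forestomach arrays, 34.5% to 46.4% on the liver arrays and 49.0% to 56.7% on the lung arrays. On forestomach slide 3 it was 40.4% to 51.7%, and on slides 1 and 2 it was 18.9% to 34.9%. All forestomach arrays on which Per2 or Per3 was well above background were on slide 3, so both genes passed the filter there through 1 slide. In D0 the same held for Nr1d1 and Nr1d2.

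Promoter sequences of 9 of the 10 genes were available from RefSeq on GRCm38.p6. They are described because 3 of the genes were called as varying together between tissues, as given below. Each covers 250 bases before and 50 bases after a start site, and with alternative start sites of Tef and Per1 there were 11. The E-box CACGTG was present in 5 of the 11, against 7.15% of all 32851 promoters of this length. It stood once in each Tef promoter, in 1 of the Per1 promoters and in that of Bhlhe41, and 3 times in that of Ciart. The related E-box-like letters CACGTT were present in 1 promoter (4.68% of all), the D-box TTATGTAA 2 times in the Per3 promoter alone (0.938%), and the ROR element core AGGTCA in 2 (16.3%), those of Per1 and Nr1d2. The cyclic AMP element TGACGTCA was present in the Hlf promoter (1.79%). Motifs were read on both strands, those searched shared no bases with each other in these 11 promoters, and a match is a description of letters, not a binding site. Printed here are the promoters of the 3 genes whose levels were called as varying together between tissues. The promoter of the 1 whose level showed the least of it, before slides were taken out, is also printed. These are Per1 (chr11:69098699-69098998, plus strand), Nr1d1 (chr11:98775328-98775627, minus strand), Dbp (chr7:45704997-45705296, plus strand) and Hlf (chr11:90390868-90391167, minus strand). These genes have the Entrez numbers 18626 (chr11:69095108-69109965), 217166 (chr11:98767932-98775377), 13170 (chr7:45705100-45710203) and 217082 (chr11:90336535-90390917). The sequences run 5′ to 3′ on the gene's strand, with the matched motifs in capitals.
Per1: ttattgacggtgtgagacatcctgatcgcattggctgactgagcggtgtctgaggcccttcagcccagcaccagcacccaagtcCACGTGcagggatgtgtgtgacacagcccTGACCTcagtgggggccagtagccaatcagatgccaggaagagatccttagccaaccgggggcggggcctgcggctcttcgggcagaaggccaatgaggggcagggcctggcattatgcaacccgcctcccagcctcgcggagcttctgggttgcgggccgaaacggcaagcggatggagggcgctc
Nr1d1: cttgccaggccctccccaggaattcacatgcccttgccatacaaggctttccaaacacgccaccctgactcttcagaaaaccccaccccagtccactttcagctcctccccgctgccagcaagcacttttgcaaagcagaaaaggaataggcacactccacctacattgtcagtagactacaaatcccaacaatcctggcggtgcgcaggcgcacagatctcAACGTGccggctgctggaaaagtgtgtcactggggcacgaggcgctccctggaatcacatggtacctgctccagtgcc
Dbp: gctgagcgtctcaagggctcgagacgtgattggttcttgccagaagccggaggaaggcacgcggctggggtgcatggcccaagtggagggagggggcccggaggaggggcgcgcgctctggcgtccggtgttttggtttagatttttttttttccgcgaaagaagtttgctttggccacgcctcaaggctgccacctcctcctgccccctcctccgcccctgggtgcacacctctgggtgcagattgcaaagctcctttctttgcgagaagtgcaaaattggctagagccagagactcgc
Hlf: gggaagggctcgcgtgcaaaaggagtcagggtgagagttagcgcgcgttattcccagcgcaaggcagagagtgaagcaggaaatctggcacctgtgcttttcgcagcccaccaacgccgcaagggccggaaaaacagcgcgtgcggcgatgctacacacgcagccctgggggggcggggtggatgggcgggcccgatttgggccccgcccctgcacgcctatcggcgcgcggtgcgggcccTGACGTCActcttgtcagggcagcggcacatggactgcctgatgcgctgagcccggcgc
The capitals mark in Per1 an E-box that begins at -166 from the start site and a ROR core, on the other strand, at -137. In Nr1d1 they mark an E-box-like match on the other strand at -28, and in Hlf the cyclic AMP element at -9. The Dbp window held none of the motifs searched.

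The first comparison asked how the genes' levels differed between the tissues of the vehicle-treated mice. The clearest was Hlf, whose log2 ratio averaged 2.57 ± 0.33 (SD, n = 5) in D0 liver, 0.27 ± 0.29 in lung and 0.35 ± 0.30 in forestomach, where it was well above background on 3 of 5 arrays. The D0 liver values of Hlf were 2.81, 2.40, 2.84, 2.06 and 2.75, all above the highest lung value of 0.62 and the highest forestomach value of 0.65. On the deposited ratios Hlf was 4.93-fold higher in liver than in lung (log2 difference 2.30, SE 0.20, limma adjusted p = 1.17e-14), and lower by 2.23 on the log2 scale in forestomach than in liver (a difference of -2.23, SE 0.20, limma adjusted p = 4.85e-14), while lung and forestomach differed by 0.08 (SE 0.20, adjusted p = 0.752). Tef stood the other way, with 1.19 ± 0.33 in D0 lung against -0.29 ± 0.54 in liver and -0.83 ± 0.28 in forestomach. Its liver-minus-lung difference was -1.48 (SE 0.28, limma adjusted p = 1.06e-05) and its forestomach-minus-lung difference -2.02 (SE 0.28, limma adjusted p = 2.98e-08). Liver and forestomach did not pass for Tef (difference -0.54, adjusted p = 0.0909). Dbp, the remaining PAR bZIP gene, averaged -0.66 ± 0.87 in D0 lung, -1.35 ± 1.04 in liver and -1.96 ± 0.43 in forestomach, and passed in no pair on the deposited ratios. Its forestomach-minus-lung difference of -1.30 (SE 0.60) had an adjusted p of 0.0559, which became 0.000813 (SE 0.32) when the mouse was a block in the limma fit. With ratios recomputed from the scanner files by loess this difference of Dbp was -1.52 and was called (limma adjusted p = 0.0270, or 0.0280 after normexp), as was the forestomach-minus-liver difference of Tef at -0.78 and -0.74 (0.0110 and 0.0171). The sizes moved with the scaling within arrays. With ratios only centred on each array's median, Hlf in liver stood 0.88 above lung (1.93 after normexp and loess), and Tef in forestomach differed by -4.07 from lung and by -2.11 from liver.

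Among the repressors, Per1 was higher in D0 lung, at 0.34 ± 0.85, than in liver, at -1.31 ± 0.61, or forestomach, at -1.08 ± 0.70. The differences from lung were -1.65 in liver (SE 0.42, limma adjusted p = 0.000579) and -1.42 in forestomach (SE 0.42, limma adjusted p = 0.00330), and liver and forestomach did not differ by the test (0.23 higher in forestomach, SE 0.42, adjusted p = 0.646, and -0.95 with median centring). With median centring the differences from lung were -2.69 in liver and -3.64 in forestomach. Nr1d1 followed another order, with 1.41 ± 0.56 in liver, 0.72 ± 0.46 in lung and -0.12 ± 0.37 in forestomach, and Nr1d2 the same one, with 0.87 ± 0.47, 0.23 ± 0.38 and -0.51 ± 0.31. In forestomach Nr1d1 and Nr1d2 were each well above background on only 2 of the 5 D0 arrays, so that their distance from forestomach is not closely measured. In all 3 pairs of tissues both REV-ERB genes passed, at log2 differences of 0.69 and 0.64 for liver minus lung (adjusted p = 0.0237 and 0.0311), -0.84 and -0.74 for forestomach minus lung (0.00716 and 0.0142) and -1.53 and -1.38 for forestomach minus liver (3.76e-06 and 1.37e-05) in limma. With median centring those for forestomach minus lung were -2.25 and -2.18. Per2 did not reach the 1.5-fold limit in any pair on the deposited ratios, and in forestomach it was well above background on only 1 of the 5 D0 arrays, so that its distance from forestomach is not closely measured. With scanner loess its forestomach-minus-lung difference was called at -0.61 (limma adjusted p = 0.0179), and after normexp at -0.60 (0.0211). In lung Per3 was well above background in all 5 D0 mice and in liver in none, and no fold is given for it. Ciart in lung and forestomach and Bhlhe41 in liver were above background on none of the D0 arrays.

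**Figure D1:**
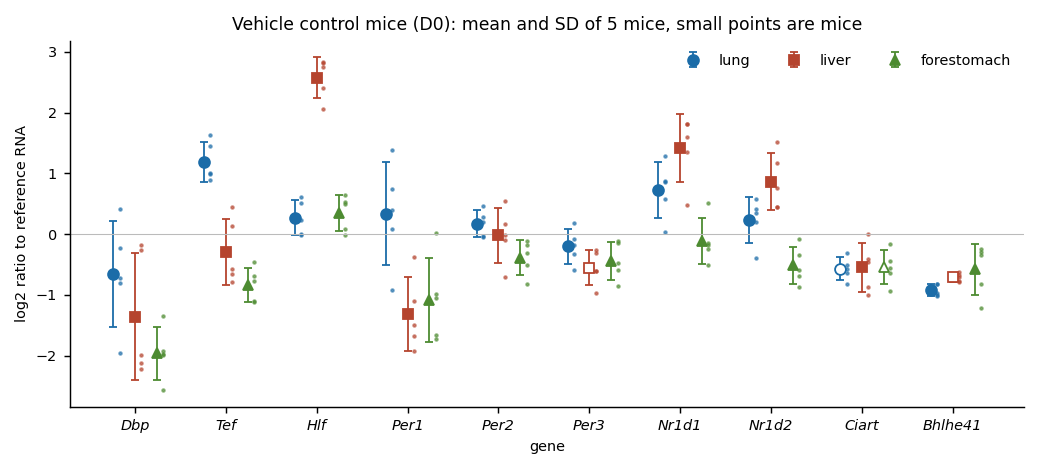
Log2 ratio to the reference RNA of each gene (x axis) in vehicle control mice, with the mean and SD of 5 mice (large symbols and bars) and each mouse (small points), by tissue. Open symbols mark groups in which no array was well above background. Hlf in liver averaged 2.57 against 0.27 in lung and 0.35 in forestomach, and Tef was highest in lung at 1.19.

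A gene counted as called where the limma p, adjusted over all probes tested, was at most 0.05 and the fold at least 1.5. In the pair of liver and lung, 5 of the members were called (Tef, Hlf, Per1, Nr1d1 and Nr1d2), against 46.0% of all 32647 probes. Between forestomach and lung 4 were called (Tef, Per1, Nr1d1 and Nr1d2), against 37.6%, and between forestomach and liver 3 (Hlf, Nr1d1 and Nr1d2), against 41.0%, so that the members were called about as often as other probes. The liver-minus-lung calls of the REV-ERB genes were the least firm. That of Nr1d1 was lost without mouse 1 (adjusted p = 0.0556), 3 (0.0769) or 5 (0.0531), and that of Nr1d2 without mouse 2 (0.0726), 3 (0.0766), 4 (0.0833) or 5 (0.0573). With log ratios only centred on each array's median, both turned the other way, to -0.63 and -0.71. Both calls were also lost with scanner loess, at 0.49 and 0.45 (limma adjusted p = 0.115 and 0.114). With normexp and loess they were lost at 0.47 and 0.44 (0.152 and 0.135). The forestomach-minus-lung call of Nr1d1 was lost without mouse 4 (adjusted p = 0.0580) and that of Nr1d2 without mouse 3 (0.0530), Per2 was called there without mouse 2 (-0.59, adjusted p = 0.0494), and Dbp was called without mouse 7, 9, 15 or 20 (adjusted p = 0.0433 to 0.0496).

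The second comparison asked whether the genes varied together in the tissues of 1 animal. Dbp varied widely between mice of the same group. Its residual SD around the dose-group means was 0.98 in lung, 1.23 in liver and 0.66 in forestomach, where the median of all probes tested was 0.16, 0.16 and 0.28, which placed it at the 99.3, 99.8 and 90.3 percentile. From its lowest to its highest array Dbp spanned 20.9-fold in lung, 21.3-fold in liver and 8.07-fold in forestomach. Mouse 15, of D2, had the highest Dbp value in all 3 tissues. The lowest belonged to D0 mouse 2 in lung and forestomach and to D1 mouse 6 in liver.

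In lung the Dbp log2 ratios were -0.23, -1.95, -0.80, 0.42 and -0.73 in D0 mice 1 to 5 and -0.93, -1.89, -0.41, 1.21 and 0.43 in D1 mice 6 to 10. They were 0.79, 1.12 and 2.44 in D2 mice 12, 13 and 15 and 1.52, -0.42, 1.54, 0.17 and 0.11 in D3 mice 16 to 20. All 3 lung values of D2 lay above all 5 of D0, while D1 and D3 overlapped with D0. In liver the values were -2.22, -2.12, -0.18, -0.26 and -1.99 in D0 and -2.28, -1.97, -0.66, 0.98 and -0.04 in D1, in the same order of mice. The liver values of D2 mice 11, 12, 13 and 15 were -0.44, -0.07, 1.92 and 2.13, and those of D3 were 1.09, -0.18, 0.79, 1.16 and -1.69. Each of the dosed liver groups overlapped with D0, whose values fell into a low set near -2 (mice 1, 2 and 5) and a higher pair (mice 3 and 4). In forestomach Dbp stood at -1.99, -2.56, -1.92, -1.34 and -1.97 in D0, -2.44, -2.42, -2.11, -1.45 and -1.39 in D1, -1.93, -1.45, -0.77 and 0.45 in D2 and -0.55, -1.66, -0.34, -1.39 and -1.57 in D3. Again every dosed group overlapped with D0, and mice 15, 16 and 18 were the highest. The second Dbp probe followed the first with r = 0.997 in lung, 0.997 in liver and 0.952 in forestomach across arrays. The 2 probes of Bhlhe41 were less alike, with r = 0.390 in lung, where the second was above background on 5 of 18 arrays and differed from D0 at D3 by 0.10 against -0.04.

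**Figure D2:**
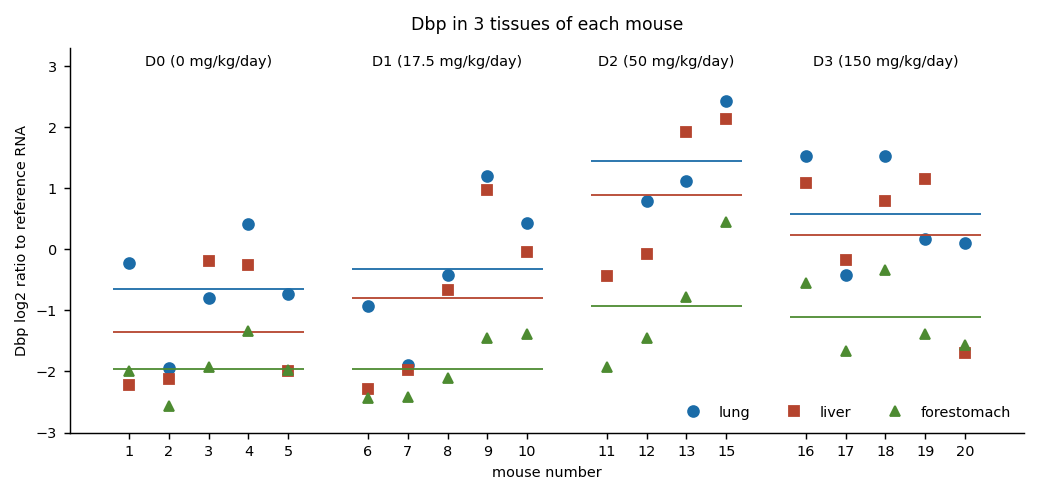
Dbp log2 ratio to the reference RNA (y axis) in lung, liver and forestomach of each mouse (x axis, in dose groups). Horizontal lines are the dose-group means of each tissue. Mouse 15 was highest in all 3 tissues, at 2.44, 2.13 and 0.45, and the D0 mean was -0.66 in lung, -1.35 in liver and -1.96 in forestomach.

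After the dose-group means were taken out, the Dbp deviations of lung and forestomach from the same mouse had a Pearson r of 0.894 and a Spearman rho of 0.909 over 18 mice (both permutation p = 2e-05, two-sided, with mice shuffled within dose groups). This r stood at the 99.96 percentile of all probes tested in both tissues, and the p adjusted over those probes was 0.0168. The call was lost with normexp and loess (r = 0.856, adjusted p = 0.0501), and with median centring r turned to -0.266. For lung and liver the Dbp r was 0.693 (rho 0.666, permutation p = 0.00600 and 0.00774, adjusted p = 0.179), and for liver and forestomach it was 0.763 over 19 mice (rho 0.740, permutation p = 0.000580 and 0.00213, adjusted p = 0.176). The last 2 did not pass the adjustment over all probes. Dbp deviated in the same direction in all 3 tissues in 13 of the 18 mice. Without the 2 mice farthest from the median in the first tissue of each pair, r was 0.934, 0.591 and 0.763 in the same order.

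Per1, the PER gene known to respond fastest to stimuli from outside the clock, also varied with the animal. Its lung values were 0.39, -0.92, 1.38, 0.75 and 0.09 in D0, -0.39, -0.89, 0.76, 0.90 and -0.27 in D1, -0.45, 0.94 and 1.35 in D2 and 0.08, -0.69, 0.11, 0.31 and 0.31 in D3. In liver they were -1.49, -1.68, -0.37, -1.10 and -1.92 in D0, -1.88, -2.29, -0.48, -0.65 and -1.50 in D1, -1.49, -1.58, 0.20 and 0.36 in D2 and -1.12, -1.23, -1.15, -0.75 and -1.74 in D3. In forestomach they were -1.06, -1.66, 0.01, -0.99 and -1.72 in D0, -1.94, -1.37, -0.54, -0.83 and -1.20 in D1, -1.26, -1.79, -0.05 and -0.07 in D2 and -0.84, -0.96, -0.84, -0.54 and -0.93 in D3. D0 mouse 3 was highest of its group in all 3 tissues, D1 mice 8 and 9 stood above mice 6, 7 and 10 in all 3, and D2 mice 13 and 15 stood above the other D2 mice in all 3. All dosed groups overlapped with D0. The Per1 r was 0.907 between liver and forestomach (rho 0.918, n = 19, both permutation p = 5e-05, adjusted p = 0.00552) and 0.839 between lung and liver (rho 0.849, n = 18, permutation p = 0.000690 and 0.000900, adjusted p = 0.0139). Between lung and forestomach it was 0.837 (rho 0.901, permutation p = 0.000530 and 0.000190), with an adjusted p of 0.0629. With median centring r was -0.064 between liver and forestomach and 0.831 between lung and liver (adjusted p = 0.138), neither of them called. Per1 deviated in 1 direction in all 3 tissues in 14 of 18 mice, and r without the 2 farthest mice was 0.881, 0.842 and 0.784.

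Nr1d1, which encodes REV-ERB alpha, varied together in lung and liver, while its relations with forestomach did not pass. Its lung values were 0.88, 0.03, 0.85, 1.28 and 0.57 in D0, 0.69, 0.06, 0.87, 1.62 and 1.37 in D1, 1.40, 1.47 and 1.82 in D2 and 1.82, 1.15, 1.73, 1.06 and 1.08 in D3. Its liver values were 1.60, 0.48, 1.81, 1.82 and 1.35 in D0, 1.24, 0.78, 1.62, 2.17 and 2.23 in D1, 1.89, 1.89, 2.18 and 2.27 in D2 and 2.40, 2.04, 1.82, 1.36 and 0.99 in D3. D0 mouse 2 and D1 mouse 7 were the lowest of their groups in both tissues, and the 3 D2 lung values and 4 D2 liver values all lay above those of D0. Between lung and liver r was 0.885 (rho 0.889, n = 18, permutation p = 0.000130 and 9e-05, adjusted p = 0.00335, and r = 0.853 without the 2 farthest mice). With median centring this r was 0.557 and was not called. With forestomach, r was 0.281 for lung (permutation p = 0.363) and 0.372 for liver (permutation p = 0.177). Nr1d2, for REV-ERB beta, had r of 0.760, 0.804 and 0.672 for lung and liver, lung and forestomach, and liver and forestomach (permutation p = 0.00171, 0.000370 and 0.00132), and adjusted p of 0.0743, 0.115 and 0.412, so that none passed.

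Of the remaining genes, Tef had r of 0.698, 0.745 and 0.656 in the same 3 pairs (permutation p = 0.00647, 0.00270 and 0.0210, adjusted p = 0.166 to 0.449). Ciart had r of 0.754 between lung and liver (permutation p = 0.00328, adjusted p = 0.0811), on values mostly near background. Per2 and Per3 ranged from 0.374 to 0.555 and had adjusted p of 0.563 to 0.795. Hlf stood lowest of the members in each of the 3 pairs, with r of -0.122, -0.005 and -0.001 (permutation p = 0.688, 0.986 and 0.997). Its deviations had 1 sign in all 3 tissues in only 3 of 18 mice. With the slides of both tissues taken out, r in lung and forestomach was 0.747 for Hlf and -0.041 for Per2. In liver and forestomach it was then 0.052 for Per3. In forestomach Hlf was well above background on 14 of 19 arrays. In lung Hlf ranged from -0.01 to 2.31 over the arrays and in liver from 2.06 to 3.17.

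**Figure D3:**
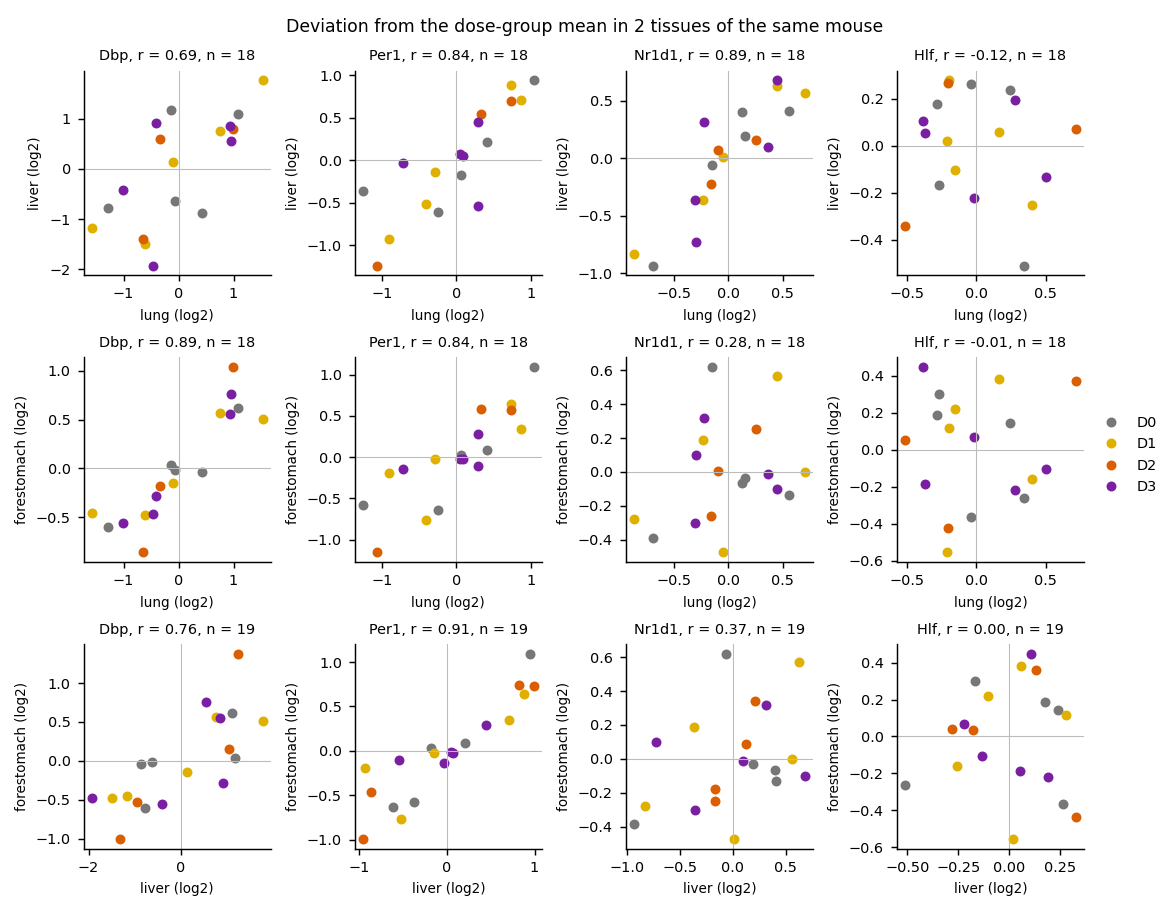
Deviation of the log2 ratio from the dose-group mean in 1 tissue (x axis) and another (y axis) of the same mouse, for Dbp, Per1, Nr1d1 and Hlf (columns) and the 3 tissue pairs (rows). Each point is a mouse, coloured by dose group, and r is Pearson's. Per1 ran from 0.84 to 0.91, while Hlf lay between -0.12 and 0.

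In all, 25 relations of members between tissues were computed. After adjustment over all probes, 2 of 9 members were called in lung and liver (Per1 and Nr1d1), where 1.06% of 23309 probes were. In lung and forestomach 1 of 8 was called (Dbp), where 0.11% of 26249 probes were, and in liver and forestomach 1 of 8 (Per1), where 0.138% of 22432 were. The median r of the members was 0.698, 0.650 and 0.573 in these 3 pairs, and that of all probes was 0.090, 0.012 and 0.050. With median centring the members had 0.526, -0.446 and -0.050, and all probes -0.074, -0.298 and 0.255. With the slides removed the members had 0.530, 0.578 and 0.553. Some calls rested on single mice. The lung and liver call of Per1 was lost without mouse 3 (adjusted p = 0.0518) or 12 (0.0723), and the lung and forestomach call of Dbp without mouse 4 (0.0567) or 10 (0.0602), while between lung and liver Tef was called without mouse 19 (0.0355), Nr1d2 without mouse 1 (0.0414) or 18 (0.0408) and Ciart without mouse 8 (0.0116). Without the lung arrays of mice 17 and 19, Tef (r = 0.923) and Nr1d2 (r = 0.838) joined Per1 and Nr1d1 between lung and liver, and Dbp between lung and forestomach had r = 0.879 and an adjusted p of 0.0877.

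The slide moved with these deviations. In liver all 7 mice on slide 2 had Dbp above their dose-group mean, by 0.99 on average, against 1 of 6 on slide 1 and 2 of 6 on slide 3. In forestomach it was 6 of 7 on slide 2, 1 of 5 on slide 1 and 1 of 7 on slide 3, and in lung 4 of 7, 1 of 5 and 2 of 6. Slides of different tissues held largely the same mice, since 12 of 18 mice had the same slide number in lung and liver, 13 of 18 in lung and forestomach and 12 of 19 in liver and forestomach. With dose group and the slides of both tissues taken out, r was 0.801 for Dbp in lung and forestomach, 0.751 for Per1 and 0.868 for Nr1d1 in lung and liver, and 0.873 for Per1 in liver and forestomach. These 4 r stayed above 0.7 but their adjusted p were 0.401, 0.313, 0.0777 and 0.137, and none was called. Under the same correction Dbp had r = 0.430 in lung and liver, and Hlf in lung and forestomach went from -0.005 to 0.747. Across mice, Dbp had a residual SD of 0.82 in the raw log2 Cy5 signal of lung and 0.10 in the reference channel, and 1.23 and 0.23 in liver. In forestomach the raw Cy5 signal of Dbp varied by 1.60 and did not follow the ratio (r = -0.093). The same held for Per1 there, with a Cy5 SD of 1.34 and r of -0.305, and for Tef (-0.269), Nr1d2 (-0.232), Per2 (-0.695) and Per3 (-0.535). The mean log2 ratios of the cell type markers had r with Dbp between -0.412 and 0.390 over the 8 lists and 3 tissues, with -0.33 for skeletal muscle in lung and -0.15 for glandular stomach in forestomach.

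Within a tissue, most pairs of members had r above 0 from mouse to mouse. It was 44 of 45 pairs in lung, 33 of 36 in liver and 20 of 28 in forestomach. Here r is given as a description with no test, since 2 genes of an array share its RNA, labelling and normalization. The median r over pairs of members was 0.633 over 45 pairs in lung, 0.580 over 36 in liver and 0.387 over 28 in forestomach. In lung Dbp had r of 0.958 with Nr1d1, 0.938 with Nr1d2, 0.910 with Per3 and 0.838 with Hlf over 18 arrays. In liver it had 0.933 with Tef, 0.883 with Nr1d2 and 0.830 with Per1 over 19 arrays, but -0.074 with Hlf. In forestomach it had 0.883 with Nr1d2 and 0.806 with Tef, and again a low value of -0.08 with Hlf, whose lowest r was -0.687 with Per2. Mouse 15 lay above its dose-group mean in 27 of 27 gene and tissue values, mouse 9 in 24 and mouse 4 in 23, and mice 12, 2 and 6 in 2, 4 and 4 of 27. Mouse 11, with no lung array, lay above in 2 of 17. Neither the counts of pairs nor those of mice were computed for other probes, so how unusual they are cannot be told.

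**Figure D4:**
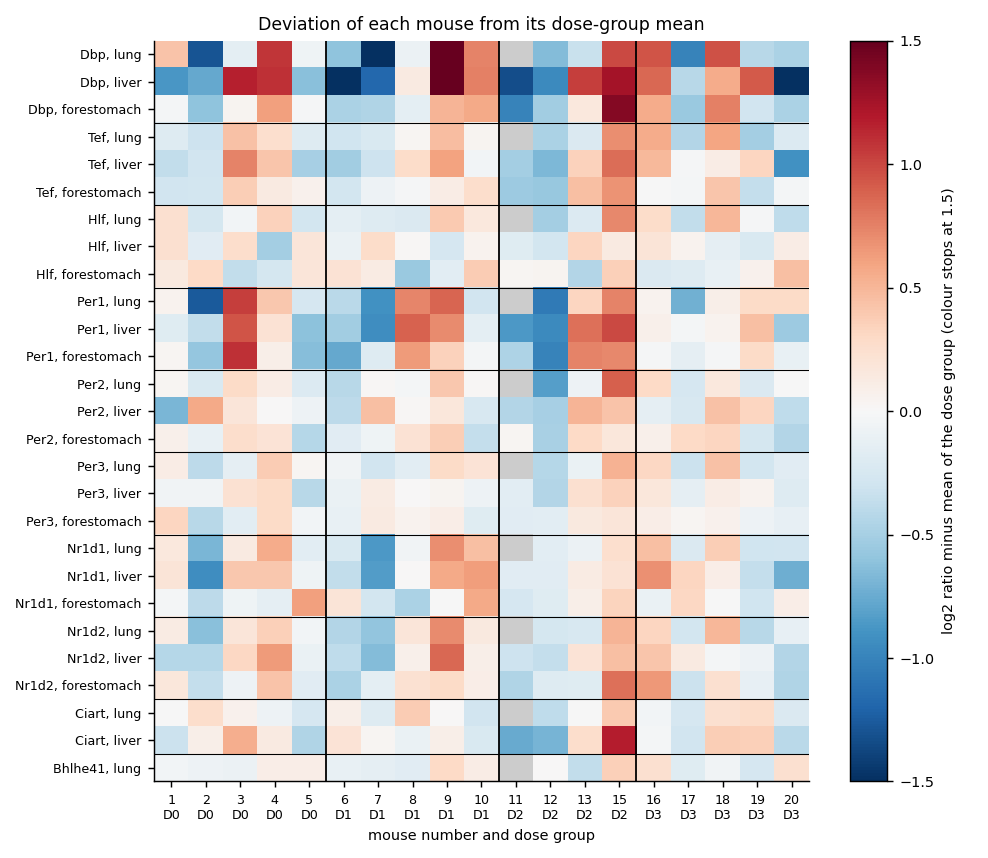
Deviation of the log2 ratio from the dose-group mean for each gene and tissue that could be tested (rows) in each mouse (columns, with dose group). Red is above and blue below the mean, the colour stops at 1.5, and grey marks the lung of mouse 11, which was not measured here. Mouse 15 is above its group mean in all 27 rows and mouse 12 in 2.

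By a fixed rule, the genes outside the 10 whose deviations followed those of Dbp most closely over the 3 tissues were sought among 11688 genes. The highest mean r belonged to Caprin2 (0.707), Mtf2 (0.703), Cry2 (0.703), Itgb3bp (0.696) and Ift27 (0.660). Cry2 encodes a cryptochrome, a partner of the PER proteins. The lowest belonged to Arntl (-0.873), Nfil3 (-0.671), Frat1 (-0.632), Dapk1 (-0.623) and Dnajc3 (-0.607). Arntl, the activator, had r of -0.931 in lung, -0.938 in liver and -0.751 in forestomach, and Nfil3, the repressor of D-boxes, -0.915, -0.906 and -0.193. Between tissues of the same mouse Arntl itself had r of 0.787 in lung and liver (adjusted p = 0.0476), 0.718 in lung and forestomach and 0.779 in liver and forestomach (adjusted p = 0.303 and 0.136). It was the only one of the 19 tested genes of a list of 22 other clock genes that was called between lung and liver, and none was called in the other 2 pairs.

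The third comparison asked whether the genes changed with the dose of chrysene. No member was called at any dose in any tissue by limma, in 81 tests of a member, tissue and dose. The same was true of the methods' Fs statistic with shuffled residuals. Of all probes, 0.127% were called in lung at D3 (40 of 31448), 0.00728% in forestomach at D3 (2 of 27491), and 0.0% at D1 and D2 and in liver at all doses. With an unadjusted limit of 0.05 on p, limma gave 7 of 10 members in lung at D2, against 6.12% of all probes there, and 3 of 10 at D3, against 16.2%. The 7 include Ciart, which was above background in no D0 lung and passed the filter only through dosed arrays. In liver 4 of 9 had such a p at D2 and 2 of 9 at D3, against 3.79% and 4.79%, and in forestomach 2 of 8 and 3 of 8, against 7.53% and 9.24%. The liver members include Per3 at both doses, which passed the filter only through D2 and D3 arrays, and Ciart at D2, which was above background in 1 of 5 D0 livers, so that these counts are a description only. At D1 it was 0 in all 3 tissues, against 5.88%, 3.61% and 4.16%.

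The fitted values of the PAR bZIP genes were mostly above the controls at the 2 higher doses. Dbp at D2 stood 2.11 above D0 in lung (SE 0.65, limma adjusted p = 0.612), 2.24 in liver (SE 0.74, adjusted p = 0.998) and 1.03 in forestomach (SE 0.41, adjusted p = 0.568) on the log2 scale. At D3 it stood 1.24 (SE 0.56, adjusted p = 0.287), 1.59 (SE 0.70, 0.9998) and 0.86 (SE 0.39, 0.506) above D0, with 2 of 5, 4 of 5 and 2 of 5 mice above the highest control. Without mouse 15 the D2 values were lower, and Dbp stood 1.61, 1.83 and 0.57 above D0. Hlf in lung had 0.51, 0.00, 0.23, 0.62 and -0.01 in D0, 0.38, 0.33, 0.32, 0.92 and 0.69 in D1, 1.08, 1.39 and 2.31 in D2 and 1.31, 0.66, 1.54, 1.01 and 0.65 in D3. All D2 and all D3 values lay above the highest D0 value of 0.62, whereas 3 of 5 D1 mice lay within the range of D0. The log2 difference of Hlf in lung was 1.32 at D2 (SE 0.26, limma unadjusted p = 7.05e-05, adjusted p = 0.569) and 0.76 at D3 (SE 0.22, unadjusted p = 0.00299, adjusted p = 0.138), and without mice 17 and 19 it was 0.89 at D3 (adjusted p = 0.303). In liver and forestomach Hlf differed from D0 by 0.27 and -0.33 at D2 and by 0.05 and 0.36 at D3. With 1 mouse left out, its D2 value lay between 0.14 and 0.36 in liver and between -0.45 and -0.18 in forestomach. Tef differed by 0.78, 1.03 and 0.73 at D2 in lung, liver and forestomach and by 0.21, 0.66 and 0.66 at D3, where 4 of 5 forestomach mice lay above the highest control (SE 0.23, adjusted p = 0.320). In lung the Tef value was 0.44 at D2 without mouse 15, and 0.53 at D3 without mice 17 and 19, where Dbp was 1.71 (limma adjusted p = 0.523 and 0.401). Leaving out 1 mouse at a time moved the D3 lung value of Tef from 0.06 (without mouse 18) to 0.34 (without mouse 19). With median centring the D3 forestomach values were 1.45 for Dbp and 1.20 for Tef.

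Among the repressors, Nr1d1 in lung stood 0.84 above D0 at D2 (SE 0.31, limma adjusted p = 0.726) and 0.64 at D3 (SE 0.27, adjusted p = 0.255), and Nr1d2 0.92 (SE 0.29, 0.612) and 0.52 (SE 0.25, 0.315). Without mice 17 and 19 the D3 lung values were 0.82 for Nr1d1 and 0.75 for Nr1d2. In liver Nr1d1 and Nr1d2 were 0.65 and 0.56 above D0 at D2 and 0.31 and 0.30 at D3, with adjusted p of at least 0.998. With 1 mouse left out, the D2 liver value lay between 0.41 and 0.75 for Nr1d1 and between 0.40 and 0.72 for Nr1d2. Per1 differed from D0 by 0.28, 0.68 and 0.29 at D2 in lung, liver and forestomach, and at D3 by -0.31 in lung (SE 0.43), 0.12 in liver (SE 0.41) and 0.26 in forestomach (SE 0.36). Without mouse 15 the D2 values of Per1 were -0.09, 0.35 and 0.05, so that the one in lung turned, and without mice 17 and 19 its D3 value in lung was -0.17. The D3 lung value of Per1 was -0.63 without control mouse 2 and -0.05 without control mouse 3. Per2 at D3 differed from D0 by 0.05, 0.29 and -0.02. Per3 was above background in no D0 liver, in 2 of 4 D2 livers and in 1 of 5 D3 livers, and no fold is drawn from this. Ciart, a repressor of the activator pair, was above background in no D0 lung and in 3 of 5 D1, 2 of 3 D2 and 3 of 5 D3 lungs. In liver it was above background on 1 of 5 D0 and 2 of 4 D2 arrays. On no D1 liver array was it above background, and at D3 only on that of mouse 18. These Ciart signals lie near background, and no fold is drawn from them. Bhlhe41 in lung differed by -0.08 at D2 and -0.04 at D3, and the latter turned to 0.10 without mice 17 and 19.

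**Figure D5:**
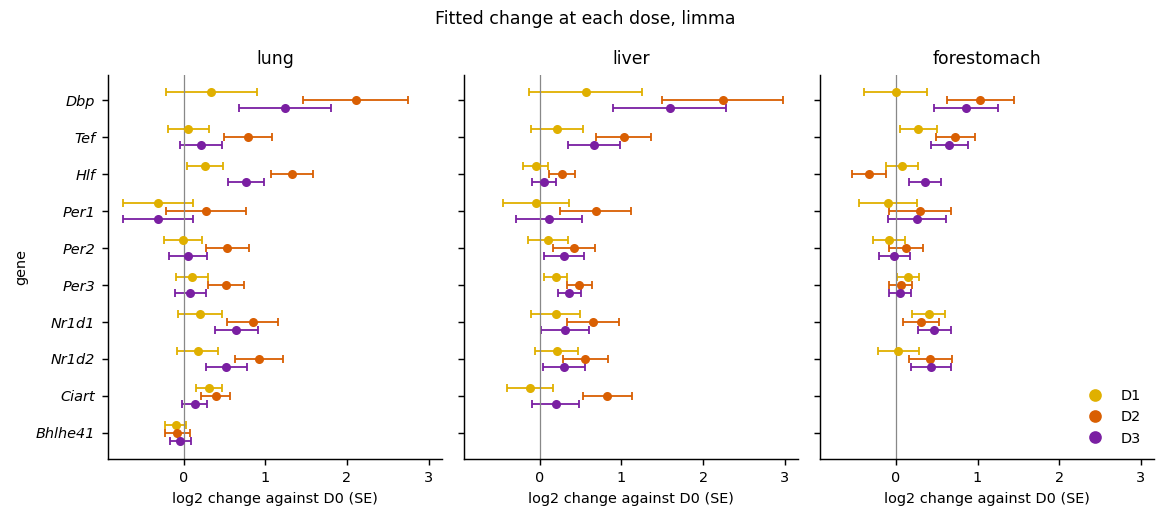
Log2 change of each gene (y axis) at D1, D2 and D3 against D0, fitted by limma, with its SE, in lung, liver and forestomach (x axis, log2 scale). Genes without points could not be tested in that tissue. Dbp at D2 lay at 2.11, 2.24 and 1.03, and no value passed the adjusted p limit.

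At D2, 9 of 10 members in lung, 9 of 9 in liver and 7 of 8 in forestomach were fitted above D0, with median log2 changes of 0.66, 0.65 and 0.30, where the median of all probes was 0.00, 0.00 and -0.01. Without mouse 15 the D2 counts were 8 of 10, 9 of 9 and 6 of 8 and the medians 0.35, 0.40 and 0.11. At D3 it was 8 of 10, 9 of 9 and 7 of 8 with medians of 0.17, 0.30 and 0.40. Of all probes, 42.5%, 47.0% and 49.7% were fitted above D0 at D3, with medians of -0.026, -0.007 and -0.001. With median centring of the arrays the counts of members were 10, 9 and 6 at D2 and 9, 8 and 7 at D3. The share of all probes fitted above D0 was not computed at D2 or with median centring. The members vary together between mice, and the counts and medians include Ciart in lung and Per3 in liver, which passed the filter only through dosed arrays, so that they are a description only. All D2 mice lay above all D0 mice for 4 of 10 members in lung (Dbp, Hlf, Nr1d1 and Nr1d2), where 2.4% of all probes did, for 1 of 9 in liver (Nr1d1, 0.693%) and for 0 of 8 in forestomach (0.957%). At D3 it was Hlf alone in lung (0.677%) and 0 in liver and forestomach (0.348% and 0.862%). The array column cannot be told apart from dosing in lung, as given above.

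A linear trend over the dose steps called 0 of the members in lung, liver and forestomach, against 0.169%, 0.0% and 0.04% of all probes. The fitted D0-to-D3 change of Dbp was 1.52 in lung (SE 0.58, limma unadjusted p = 0.0161, adjusted p = 0.200), 1.88 in liver (SE 0.69, 0.0123 and 0.856) and 1.06 in forestomach (SE 0.38, 0.0113 and 0.337). Without mouse 15, Hlf in lung was called, at 0.83 (SE 0.19, adjusted p = 0.0465), and with the slide as a block Tef in forestomach was, at 0.80 (SE 0.16, adjusted p = 0.0349). No member had a D3 effect called as different between tissues, against 0.0% of probes for liver and lung, 0.769% for forestomach and lung and 0.0811% for forestomach and liver. The smallest unadjusted p was that of Hlf, whose D3 effect was lower in liver than in lung by 0.71 (a difference of -0.71, SE 0.28, limma unadjusted p = 0.0141, adjusted p = 0.751).

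Of the 22 other clock genes (activators, cryptochromes and Bhlhe40, ROR and NFIL3 factors, kinases and ligase parts, and output genes), 20 could be tested in lung and liver and 19 in forestomach, and 0 were called in either direction at any dose by limma. Unadjusted limma p values up to 0.05 were found at D2 for 4 in lung, 4 in liver and 2 in forestomach. Of all probes, 6.12%, 3.79% and 7.53% had such a p. At D3 it was 0, 1 and 3, against 16.2%, 4.79% and 9.24% of all probes. At D1 it was 0, 0 and 1, against 5.88%, 3.61% and 4.16%. Arntl stood below D0 at D2 by values of -1.03 in lung (SE 0.38, adjusted p = 0.726) and -1.23 in liver (SE 0.41, adjusted p = 0.998), with -0.04 in forestomach (SE 0.19). Nfil3 had -0.84, -0.62 and -0.32. Cry2 was above D0 at D3 by 0.51 in forestomach (SE 0.13, limma adjusted p = 0.163), 0.49 in liver (SE 0.14, adjusted p = 0.964) and 0.03 in lung (SE 0.13, adjusted p = 0.934), and the deubiquitinase gene Usp2 by 0.92 in forestomach (SE 0.23, adjusted p = 0.163), 0.37 in liver and 0.44 in lung. The medians of this list at D3 were -0.10 in lung, -0.03 in liver and -0.05 in forestomach.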

How the data were processed

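RNA of 18 lung, 19 liver and 19 forestomach samples was hybridized in Cy5 against the reference in Cy3, with no dye swap per the labels. The authors deposited log2 ratios (Cy5 to Cy3), which the methods describe as LOWESS normalization of median signals, with no background subtraction. Against loess ratios from the scanner files, those columns had r of 0.977 to 0.998 and slopes of 0.952 to 0.996, which set their scale and direction, and their medians were -0.0456 to -0.0201. The deposited scanner files, from Feature Extraction 10.7.3.1, hold median intensity and background intensity per spot, and flags of 0 or 1. Probes with a non-uniform spot (0 to 41 spots per array) were left out. The number of arrays limits the precision.

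RefSeq accessions named 26413 of 55681 probes through a table for GRCm38.p6, and the brightest probe of a gene was used. Tests were limma 3.58.1 (R 4.3.3), two-sided, with Benjamini-Hochberg adjustment over all probes tested. The Fs statistic that the methods name was an alternative, with 100 shuffles of residuals. Covariation used deviations from dose-group means, 100000 permutations within dose groups and, for the adjusted p, a regression per probe with dose terms. The labels' mouse numbers pair the tissues of 1 animal, and over all probes the median r of the same mouse's deviations was 0.123, 0.0166 and 0.0635 in the 3 tissue pairs. Beyond the mouse, the slide and the array position of each sample, nothing further is known of the replicates. The code was tested on simulated data. The members, the lists, the tests and the rule for named genes (the 10 members, 5 genes most like and 5 least like Dbp, and genes of the clock list) were chosen with earlier results of these data known. Alternatives were scanner loess, normexp (offset 50) with loess, median centring, no filter, all probes of a gene, left-out mice or lung arrays, and slide, column and mouse terms.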

Additional observations from a re-analysis of the deposited data

Results flagged for a closer look

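Each group of 4 or 5 mice was examined for 1 value far from the others, in 98 groups of a member, tissue and dose, of which chance marks about 1 in 20. It marked 2, both of Per1. The lung array of D3 mouse 17, one of the pair with skeletal muscle markers, had a log2 ratio of -0.693, while the other 4 D3 lungs ranged from 0.08 to 0.31. The forestomach of D3 mouse 19 had -0.538, while the other 4 ranged from -0.96 to -0.84. Per1 at D3 also differed in direction between tissues, since all 5 forestomach values lay above the D0 mean (a mean difference of 0.257) and all 5 lung values below it (-0.313). The limma test of that difference gave 0.57 (SE 0.60, adjusted p = 0.772), which did not pass.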

How the results depend on the processing

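No member was called for a dose at D1, D2 or D3 in any tissue, or for a difference of the D3 effect between tissues, under any alternative run, the Fs statistic, the slide term and the 19 settings that leave out a mouse included. In lung the fit with the array column as a covariate says nothing about stability, because column and dosing cannot be told apart there. At D3 it moved Dbp in lung from 1.24 to 4.28 and turned Per1 from -0.313 to 1.83. In liver and forestomach column followed dose on most arrays, so that this fit says little there. The trend called 1 member (Tef) in forestomach with the slide as a block, and 0 to 1 in lung when a mouse was left out. Of the tissue levels at D0, liver minus lung gave 3 calls with scanner loess and 3 with normexp and loess, and 3 to 5 without a mouse. With median centring the counts were 7 for forestomach minus lung and 5 for forestomach minus liver, and the liver-minus-lung differences of Nr1d1 and Nr1d2 turned to -0.633 and -0.714. The mouse as a replicate block added Dbp in forestomach minus lung (adjusted p = 0.000813) and changed no other call. Covariation of lung and liver gave 4 calls with normexp and loess, 0 with median centring, 0 with the slides removed, 4 without the lung arrays of mice 17 and 19, and 1 to 3 without a mouse. Lung and forestomach gave 0 under each of these 4 and 0 to 1 without a mouse, and liver and forestomach 0 with median centring and 0 with the slides removed. With median centring, r turned to -0.266 for Dbp in lung and forestomach and to -0.0642 for Per1 in liver and forestomach. That setting applies no correction that depends on intensity. It shifts the median of all probes by 0.22, 0.12 and 0.11 in lung at D1, D2 and D3 and by 0.18 in forestomach at D3. The causes of these moves were not tested. Of 2685 values recomputed, 2584 kept their side of the limits or moved by less than the spread. Many of them could not move, since leaving out a mouse that is in neither group compared does not change their difference. The count is therefore not a measure of stability. Signal near background limits Ciart and Bhlhe41 everywhere but Bhlhe41 in lung, Per3 in liver and forestomach, and in forestomach Per2, Hlf (2 of 5 D0 arrays not above background) and Nr1d1 and Nr1d2 (3 of 5).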
